A study of Mus musculus with 6 samples.

Results

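Autophagy genes were examined in polyA-selected RNA of epididymal white adipose tissue, a visceral depot, of wild-type and Prmt5 knockout mice. The genes were chosen by name from the gene column of the deposited table: the numbered Atg genes, the Gabarap and Map1lc3 genes, Ulk1 to Ulk3, Wipi1, Wipi2 and 14 further genes of initiation, cargo binding and mitophagy. The rule found 42 genes among the 14291 analysed. There were 3 libraries of each genotype, numbered 1 to 3 in the labels. The wild type carried floxed alleles (Prmt5flox/flox) and the knockout is written Prmt5AKO, with no Cre driver, deleted cell type, age or sex given in the sources used here. Prmt5 encodes an arginine methyltransferase. The labels do not tie a library to an animal, and the spread behind each p-value may therefore be technical. The comparison asks how transcripts of the autophagy machinery stood in fat with and without the deletion.

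Autophagy encloses cytoplasm in a double membrane, the autophagosome, and delivers it to lysosomes. A kinase complex built on ULK1 starts the process, a class III PI3-kinase complex marks the membrane with phosphatidylinositol 3-phosphate, ATG9 and ATG2 proteins supply lipid, and a ubiquitin-like conjugation system attaches ATG8 proteins (LC3 and GABARAP) to it. Receptors such as p62 or BNIP3 tether cargo to the attached ATG8 proteins. In mouse fat, deletion of Atg7 in adipocytes is known to leave cells with many mitochondria and small lipid droplets.

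Expression is given in CPM (counts scaled to library size with edgeR's TMM factors) and, where genes are compared with each other, in RPKM (the same CPM per kilobase of exons). Each fold change sets the knockout over the wild type in log2 units, with genotype the sole term of the fit. A second fit, the batch-term fit, adds a term that parts replicate 1 of both genotypes from replicates 2 and 3. It matched the authors' deposited log2 fold changes to within 8.33e-15, and no label says what that grouping was. Prmt5 read 37.5, 59.9 and 40.8 CPM in the wild type (replicates 1 to 3) against 14.8, 22.4 and 28.5 CPM in the knockout (adjusted p = 0.467, edgeR). Each knockout library lay below each wild-type library, in the direction of its label.

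The libraries differed in length and GC bias, and their split followed genotype only in part. Across all genes, the deviation of a library from the gene mean rose with exonic length in wild-type replicates 1 and 3 and knockout replicate 1 (Spearman's rho 0.55, 0.14 and 0.46) and fell with it in the other 3 libraries (-0.45 to -0.42). With GC content the same deviation had a rho of -0.42, -0.63 and -0.41 in those 3 libraries and 0.28 to 0.62 in the others. These are descriptions across genes, which are not independent replicates. Total counts ran from 17489530 to 26403882. All 10 adipocyte markers were among the genes analysed, at a summed 46720 to 55460 CPM in wild type and 34520 to 43600 CPM in knockout. Cfd (means of 13580 and 5519 CPM) and Pparg (190.1 and 126.5 CPM) were lower without overlap, and the others overlapped. Of those, Lep, Fabp4, Cidec and Lpl had lower means in the knockout, and Adipoq, Plin1, Retn and Slc2a4 had level or higher ones. None of 8 markers of epididymis and testis and none of 4 Y-linked genes was among them, while Xist, transcribed from the inactive X of females, stood at 45.6 to 1044 CPM over the 6 libraries. The depot named in the labels is a male one, and Xist goes against that. By replicate, Xist read 958.1, 106.1 and 509.7 CPM in wild type and 1044, 45.6 and 47.2 CPM in knockout. Its 3 high libraries were those with a positive rho for exonic length. Brown and beige fat markers (6 of 6 analysed) summed to 144.8 to 358.7 CPM in wild type and 620.9 to 913.0 CPM in knockout. Progenitor and fibroblast markers (5 of 5) summed to 1682 to 2860 and 990.8 to 1210 CPM, and T cell markers (4 of 4) to 7.68 to 12.2 and 14.4 to 34.9 CPM. Within these lists Ucp1, Dio2, Pdgfra, Col1a1, Cd3g and Cd8a overlapped between genotypes, and the rest did not. Dcn (509.9 to 1682 CPM over the libraries) was the largest part of the progenitor and fibroblast sum. Among markers of macrophages, Cd68 (30.8 to 64.8 and 79.3 to 94.6 CPM) and Mpeg1 (56.1 to 60.2 and 63.7 to 170.5 CPM) did not overlap, nor did Gpnmb (10.4 to 26.1 and 28.1 to 110.4 CPM) and Itgax (5.62 to 7.24 and 9.75 to 31.8 CPM) among those of lipid-associated macrophages. The sum of the latter list overlapped and was mostly Lpl, which the adipocyte list holds too. All other markers of both lists overlapped. In mean, Mrc1, Cd9 and Lpl were lower in the knockout, and Adgre1, Csf1r, Lyz2, Cd14, Trem2 and Spp1 were higher. Summed markers of macrophages, B cells, endothelium, mesothelium and muscle overlapped between genotypes, as did the 3 of 6 mammary epithelial markers analysed. Single markers of these lists without overlap, macrophages aside, were Kdr and Ms4a1, lower in the knockout, and Tagln, higher in it.  The part of these marker differences in the results on autophagy genes was not tested, and in whole tissue fewer cells of a type and less RNA per cell cannot be told apart.

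Autophagy genes lay on both sides of 0 and none passed the threshold over all genes. By the quasi-likelihood test of edgeR, Benjamini-Hochberg adjusted, 0 of the 42 had an adjusted p under 0.05, as were 0 of all genes (0% higher and 0% lower). At an unadjusted p under 0.05 (8.63% of all genes in either direction), 3 stood higher (Atg16l1, Atg2a and Atg9b) and 3 lower (Bnip3, Bnip3l and Fundc1), 7.14% of the members in each direction. Over all genes the shares were 5.26% higher and 3.37% lower. The genotypes did not overlap for 5 members higher in the knockout and 3 lower (11.9% and 7.14%), beside 8.32% and 6.2% of all genes. In the batch-term fit 0 members had an adjusted p under 0.05, where 0.385% of all genes were called higher and 0.119% lower, 0.504% in all. At an unadjusted p under 0.05 that fit had 9 members higher and 7 lower (21.4% and 16.7%), beside 12.1% and 12.4% of all genes, 24.5% in all. Its batch term had 9 members higher in replicates 2 and 3 than in replicate 1 and 7 lower, where 17.5% and 20.6% of all genes were. The median log2 fold change of the members was -0.058, against -0.016 over all genes. It lay above 0 for 19 members and below for 23, beside 49% and 51% of all genes. DESeq2 called 1 member, Atg16l1, and 1.9% of all genes.

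These counts depended on single libraries. At an unadjusted p under 0.05, the 3 higher members became 1 without wild-type replicate 1 or 3 or without knockout replicate 2 or 3. The 3 lower members became 0 without wild-type replicate 3 or knockout replicate 3. The shares of all genes fell too, to 2.74% and 2.01% higher without wild-type replicate 1 or 3 and to 2.75% and 2.69% without knockout replicate 2 or 3. Those of all genes lower were 1.88% without wild-type replicate 3 and 2.1% without knockout replicate 3. Without knockout replicate 1, 12 members were higher and 11 lower, where 14.7% and 21.9% of all genes were. Replicates 2 and 3 alone gave 9 and 10 members, beside 12.4% and 17.7% of all genes.

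**Figure D1:**
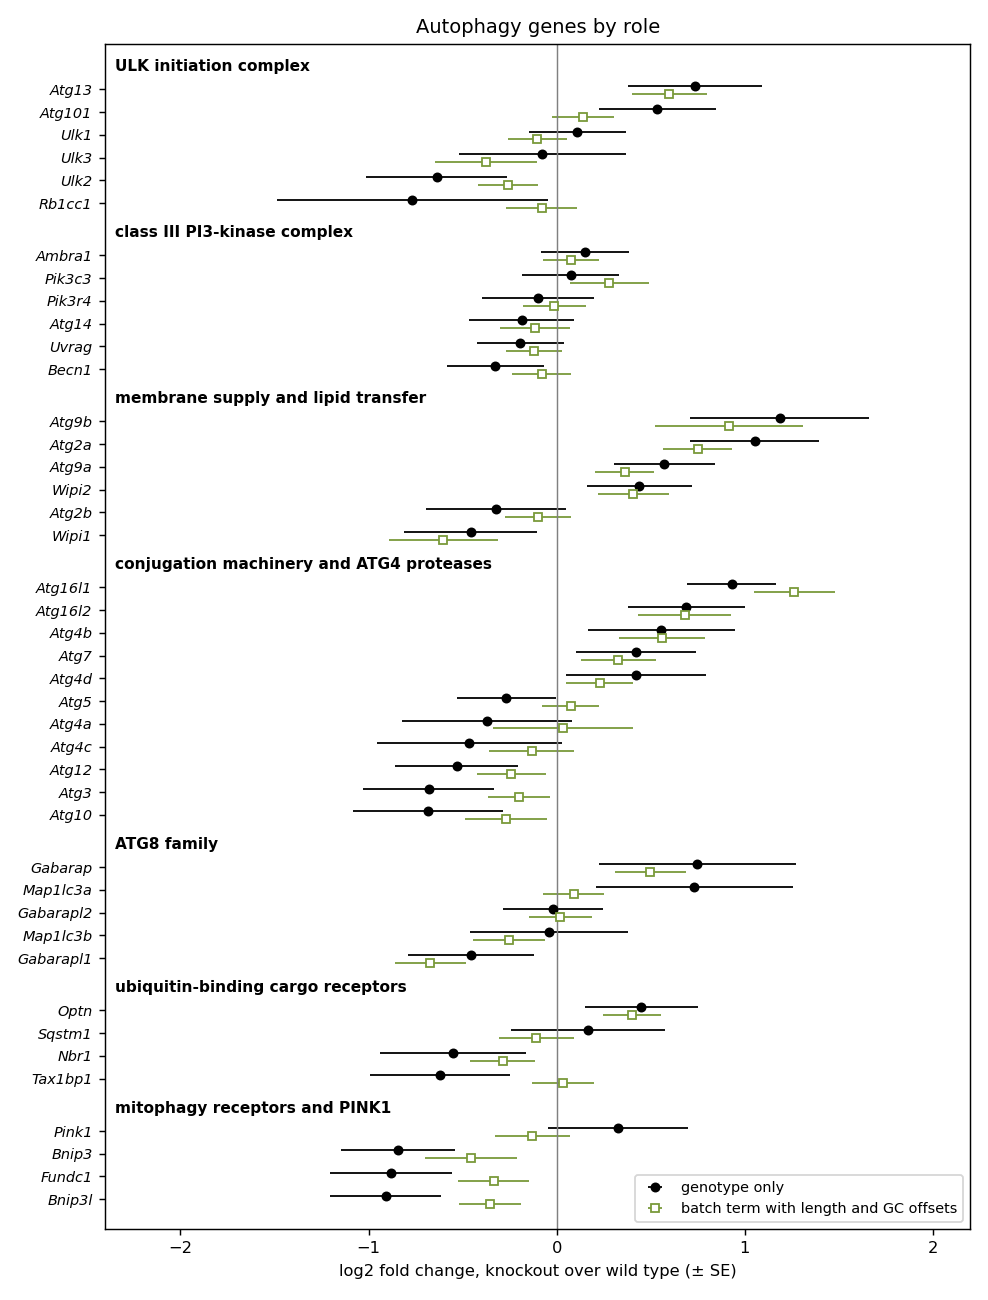
Log2 fold changes (knockout over wild type, horizontal axis) of the 42 autophagy genes by role, with bars for 1 standard error. Black circles are the genotype-only fit and open squares the batch-term fit with length and GC offsets. Atg16l1 lies to the right in both (0.93 and 1.26), while Bnip3, Bnip3l and Fundc1 lie near -0.9 in the first and between -0.46 and -0.33 in the second.

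The genes of this pathway were mostly above the middle of the genes analysed. Mean RPKM over the 6 libraries exceeded the median of all genes for 33 of 42 members. By the mean of both genotypes, Gabarap was the most abundant (526.1 RPKM, 216.8 to 931.4 over the libraries), followed by Map1lc3a (318.6), Bnip3 (256.6), Map1lc3b (222.4) and Sqstm1 (218.7 RPKM). These 5 encode ATG8 proteins and cargo receptors, the parts that are themselves consumed with the cargo. The ranges of all 5 over the libraries overlapped one another, and the order differed between genotypes. Bnip3 was second in wild type (329.5 RPKM, against 239.6 for Map1lc3a) and stood below Sqstm1 and Map1lc3b in knockout (183.6, against 231.5 and 219.4 RPKM). At the other end, Atg9b stood at 0.68 RPKM and the row named Atg4a at 1.11 RPKM. Raw counts of the members ran from 23 to 21132 per library, and 40 of 42 had at least 100 counts in every library.

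**Figure D2:**
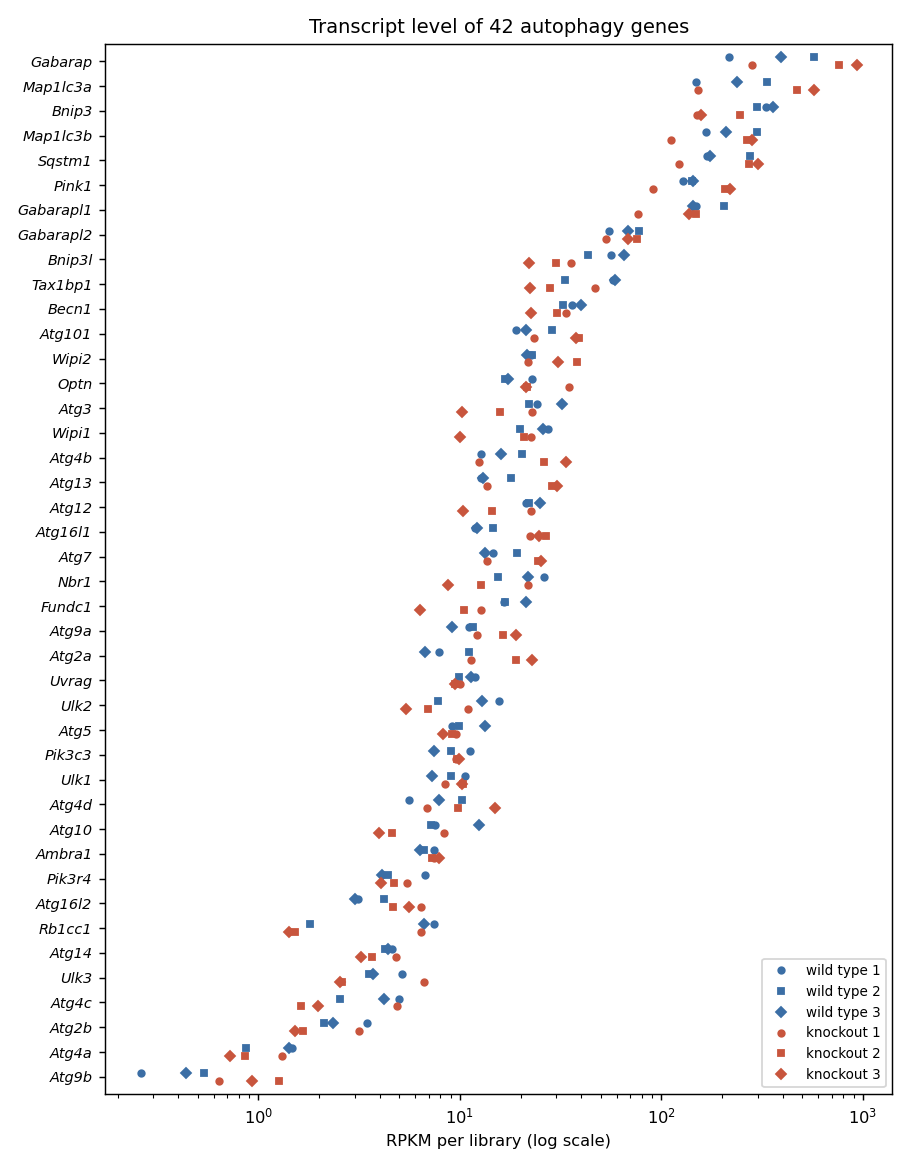
Transcript level of each of the 42 genes in RPKM (log axis), 1 symbol per library, wild type in blue and knockout in red. Genes are ordered by their mean over 6 libraries, from Gabarap at 526.1 to Atg9b at 0.68 RPKM.

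The ULK complex, which starts autophagosome formation, held members on either side of 0 (3 above and 3 below, median log2 fold change 0.016). Ulk1, its main kinase, stood at 54.9, 47.1 and 37.7 CPM in wild type and at 44.0, 53.7 and 53.1 CPM in knockout (0.11, SE 0.26). The genotypes overlapped, and its sign turned with length and GC offsets (-0.10). Atg13, the adaptor that holds the complex together, had the smallest p of the group, at 45.6, 64.0 and 46.5 CPM in wild type and 48.9, 102.4 and 108.2 CPM in knockout (0.73, SE 0.36, adjusted p = 0.586, edgeR). Its knockout replicate 1 lay within the wild-type range and replicates 2 and 3 lay above it. Atg101, a partner of ATG13, had a log2 fold change of 0.54 (SE 0.31), which was 0.14 in the batch-term fit with offsets. Ulk2 (-0.64, SE 0.37) and Ulk3 (-0.077, SE 0.44) overlapped too. Rb1cc1, which encodes the scaffold FIP200 and has 7046 bases of exons, varied most of all members within genotypes: 52.5, 12.7 and 46.9 CPM in wild type and 45.0, 10.8 and 10.04 CPM in knockout. The 3 libraries with a positive rho for exonic length were the 3 high ones for this gene.

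Members of the class III PI3-kinase complex had the smallest differences. Their log2 fold changes lay between -0.33 and 0.15, with a median of -0.14 and standard errors of 0.23 to 0.30. Becn1, whose product beclin 1 is the regulatory core of the complex, stood at 73.1, 66.1 and 80.6 CPM in wild type and 68.1, 61.7 and 45.6 CPM in knockout (-0.33, SE 0.26, adjusted p = 0.632, edgeR). Only its knockout replicate 3 and replicate 2 lay below the wild-type range. Becn1 shares 639 of its 2031 exonic bases with Cntd1 on the opposite strand. The lipid kinase gene Pik3c3 had a log2 fold change of 0.075 and its partner Pik3r4 of -0.098. Atg14 and Uvrag, which encode alternative subunits for early and late steps, had -0.19 each, and Ambra1, a beclin-binding regulator, 0.15. A p that misses the threshold does not show that these levels were equal.

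Genes of membrane supply had the highest median of the role groups (0.51, 4 of 6 above 0, and 0.41 with length and GC offsets). Atg2a encodes a protein that carries lipid into the growing membrane. It stood at 49.7, 70.02 and 42.8 CPM in wild type and 72.0, 119.7 and 145.3 CPM in knockout, means of 54.2 ± 14.2 and 112.3 ± 37.2 CPM (SD, n = 3). The genotypes did not overlap, though wild-type replicate 2 and knockout replicate 1 lay close together. Its log2 fold change was 1.05 (SE 0.34, adjusted p = 0.479, edgeR). The value was 1.00 with the batch term and 0.77 with length and GC offsets. The difference was 0.53 within replicate 1 and 1.26 within replicates 2 and 3. Its paralog Atg2b had -0.32 (SE 0.37) with overlapping genotypes. The scramblase gene Atg9a stood at 45.7, 47.9 and 37.6 CPM in wild type and 49.9, 67.3 and 77.8 CPM in knockout. Its genotypes did not overlap either (0.57, SE 0.27, and 0.37 with the offsets). Another transcript model, Gm29253, shares 1831 of the 4107 exonic bases of Atg9a on the same strand.

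Atg9b, a paralog of Atg9a, was scarce, at 1.02, 2.10 and 1.71 CPM in wild type and 2.49, 4.92 and 3.61 CPM in knockout (1.19, SE 0.48, adjusted p = 0.563, edgeR). All 3 knockout libraries lay above the wild-type ones. It overlaps the 3′ part of Nos3, the endothelial nitric oxide synthase gene, on the opposite strand over 294 exonic bases. Nos3 stood at 52.2 to 80.0 CPM in wild type and 102.8 to 132.3 CPM in knockout. No source used here gives the strand setting of the counting. Counts of Atg9b, and of other members that share exonic bases with a gene on the opposite strand, are therefore uncertain. Wipi1 and Wipi2 encode readers of phosphatidylinositol 3-phosphate. Wipi2 had a log2 fold change of 0.44 (SE 0.28) and Wipi1 of -0.46 (SE 0.36), both with overlapping genotypes.

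The promoters of Atg2a (chr19:6241418-6241717, plus strand) and Atg9b (chr5:24392094-24392393, minus strand) are printed because these 2 genes stood highest. Each runs 5′ to 3′ from 250 bases before the start used to 50 after it (GRCm38.p6), in lower case. Capitals are reserved for the 4 motifs named below, of which neither window holds any. For Atg2a that start is base 6241668, where the deposited gene begins. The RefSeq gene begins upstream of it, at 6241478, so most of the Atg2a window lies within the RefSeq gene.
Atg2a: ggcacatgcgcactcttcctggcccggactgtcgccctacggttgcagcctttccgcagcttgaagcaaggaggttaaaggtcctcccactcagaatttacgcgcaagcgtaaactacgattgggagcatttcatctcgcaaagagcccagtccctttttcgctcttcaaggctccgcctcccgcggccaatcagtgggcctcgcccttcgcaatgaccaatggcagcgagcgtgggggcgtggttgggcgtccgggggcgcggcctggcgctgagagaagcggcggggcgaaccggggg
Atg9b: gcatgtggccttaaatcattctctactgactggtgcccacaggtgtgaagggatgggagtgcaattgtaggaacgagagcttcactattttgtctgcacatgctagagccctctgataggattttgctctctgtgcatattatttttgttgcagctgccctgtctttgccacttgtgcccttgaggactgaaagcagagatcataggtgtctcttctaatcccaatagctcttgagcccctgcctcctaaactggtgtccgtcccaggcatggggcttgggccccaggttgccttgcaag

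The conjugation machinery held the member with the smallest p of all. Atg16l1 encodes the protein that brings the ATG12-ATG5 enzyme to the membrane and so sets where LC3 is attached. Wild-type replicates 1 to 3 held 38.0, 46.6 and 38.6 CPM of it, and those of the knockout 70.9, 85.1 and 78.6 CPM. Every knockout library was higher than every wild-type one by a margin wider than the range within either genotype. The means were 41.1 ± 4.78 and 78.2 ± 7.10 CPM (SD, n = 3), a 1.91-fold difference. Its log2 fold change was 0.93 (SE 0.24), with an adjusted p of 0.364 for edgeR's genotype-only fit and 0.0815 once the batch term was added. It was 0.89 within replicate 1 and 0.94 within replicates 2 and 3. The gene rose in DESeq2 (0.94, adjusted p = 0.0289) and in the batch-term fit with length and GC offsets (1.26, adjusted p = 0.0259, edgeR). Over the 22 other settings run, its log2 fold change lay between 0.83 and 1.30 and its adjusted p between 0.0259 and 0.95, with 3 settings under 0.05. With 1 library left out of the genotype-only fit it stayed between 0.86 and 1.03. The gene lies on chromosome 1, 87756011 to 87792428 (mm10, plus strand), with 3180 exonic bases.

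Its paralog Atg16l2 was lower in level but differed the same way. It stood at 6.75, 9.11 and 6.55 CPM in wild type and 13.9, 10.1 and 12.2 CPM in knockout (0.69, SE 0.31, adjusted p = 0.572, edgeR). The genotypes did not overlap, and the value with length and GC offsets was 0.70. The 2 partners of ATG16L1 stood lower or level. Atg5 had a log2 fold change of -0.27 (SE 0.27, and 0.071 with the offsets) and Atg12, the ubiquitin-like protein joined to ATG5, of -0.53 (SE 0.33, and -0.24 with the offsets). Both overlapped between genotypes.

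The enzymes of the conjugation cascade divided by sign. Atg7, the activating enzyme, had a log2 fold change of 0.42 (SE 0.32). Atg3 and Atg10, which encode the carrier enzymes that act after ATG7 on ATG8 proteins and on ATG12, had -0.68 (SE 0.35) and -0.68 (SE 0.40), and -0.20 and -0.27 with length and GC offsets. In each of these 3 genes knockout replicate 1 lay inside the wild-type range and knockout replicates 2 and 3 lay outside it. The ATG4 proteases trim ATG8 proteins before conjugation and release them from membranes. Atg4b (0.56, SE 0.39), Atg4d (0.42, SE 0.37) and Atg4c (-0.46, SE 0.49) overlapped between genotypes. Atg4d shares 792 exonic bases with Kri1 on the opposite strand. The row named Atg4a lies on chromosome 3 (103643953 to 103646068, mm10), in 1 exon, where RefSeq and GENCODE place Atg4a-ps, a retrocopy, while both place Atg4a itself on chromosome X. Its 31 to 81 counts per library are therefore those of the retrocopy locus, and Atg4a is not analysed here.

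**Figure D3:**
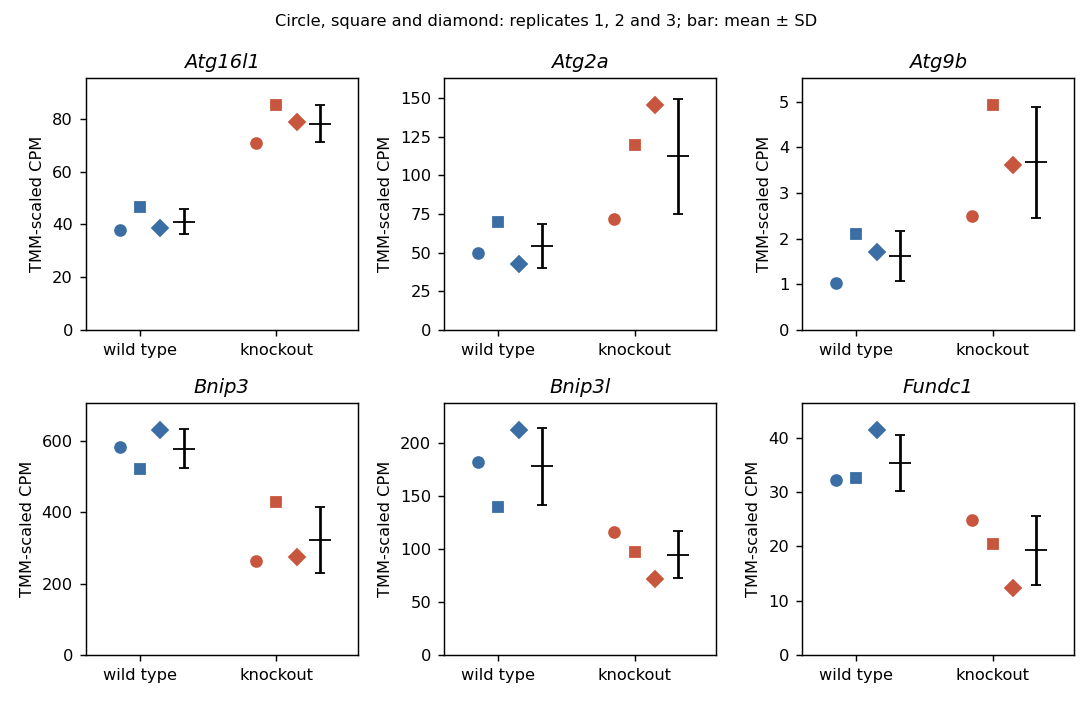
TMM-scaled CPM of the 6 members with an unadjusted p under 0.05, 1 panel per gene with the axis from 0; circles, squares and diamonds are replicates 1, 2 and 3, and the bar beside them is the mean with its SD. No panel has overlapping genotypes; Atg16l1 runs from 38.0 to 46.6 CPM in wild type and from 70.9 to 85.1 CPM in knockout.

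Transcripts of the ATG8 family, which coat the autophagosome and bind cargo receptors, had no common direction. Gabarap stood at 243.2, 639.0 and 439.8 CPM in wild type and 317.8, 856.6 and 1045 CPM in knockout (0.75, SE 0.52, adjusted p = 0.615, edgeR). Map1lc3a, an LC3 gene, stood at 154.5, 349.2 and 247.3 CPM in wild type and 158.9, 493.3 and 594.7 CPM in knockout (0.73, SE 0.52). In both genes replicate 1 was the lowest library within its genotype, and replicates 2 and 3 differed from replicate 1 by log2 fold changes of 1.36 and 1.34 in the batch-term fit. Map1lc3b, whose protein is the common marker of autophagosomes, stood at 286.0, 512.6 and 358.9 CPM in wild type and 190.5, 455.9 and 480.6 CPM in knockout (-0.039, SE 0.42). Gabarapl1 stood at 263.6, 362.4 and 255.3 CPM in wild type and 136.0, 262.8 and 243.7 CPM in knockout (-0.46, SE 0.33, adjusted p = 0.619, edgeR). Knockout replicate 1 was the lowest library, and the value was -0.67 in the batch-term fit with offsets (adjusted p = 0.085, edgeR). Gabarapl1 shares 345 of its 1773 exonic bases with 1700101I11Rik on the opposite strand. Gabarapl2 had -0.018 (SE 0.27). The sign of Map1lc3b turned without wild-type replicate 2 (0.22) and without knockout replicate 1 (0.27).

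The make-up of the family within each library, which no library scaling can alter, separated the genotypes for 3 of its 5 genes. Gabarap held 29.5%, 38.4% and 37.3% of the family's summed RPKM in wild type and 41.9%, 44.2% and 46.9% in knockout. Gabarapl1 held 20.2%, 13.8% and 13.7% in wild type and 11.3%, 8.59% and 6.92% in knockout. Map1lc3b held 22.7%, 20.2% and 20.0% in wild type and 16.5%, 15.4% and 14.1% in knockout. These 3 shares did not overlap between genotypes. Shares within a library rise at each other's expense, so the 3 differences are not independent. The differences in mean share were 9.27, -6.95 and -5.62 percentage points, each with an exact two-sided permutation p of 0.1, the smallest that 3 against 3 libraries allow, and an adjusted p of 0.467 over the 14 shares tested. Map1lc3a held 20.1% to 22.5% in wild type and 22.5% to 28.6% in knockout (exact permutation p = 0.3). Gabarap and Map1lc3a have 1122 and 1045 exonic bases and Gabarapl1 and Map1lc3b have 1773 and 1712. Gabarapl2, the shortest at 980 bases, held 6.37 ± 1.13% and 5.23 ± 2.32% (SD, n = 3), with overlapping genotypes. The part of length bias in the shares was not tested.

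**Figure D4:**
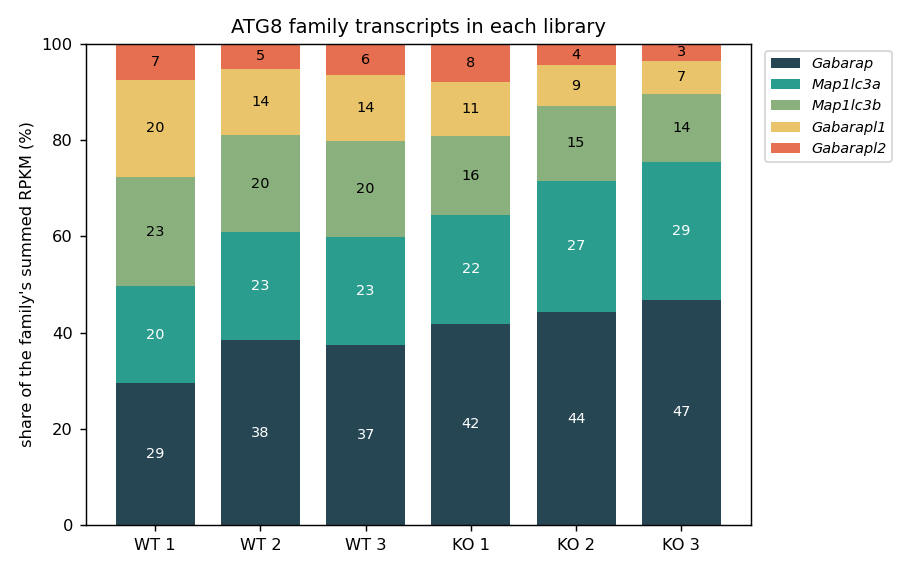
Share of each ATG8 gene in the family's summed RPKM (percent, stacked to 100) in the 6 libraries, with rounded shares printed in the bars. Gabarap holds 29.5% to 38.4% in wild type and 41.9% to 46.9% in knockout, and Gabarapl1 13.7% to 20.2% and 6.92% to 11.3%.

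In the other families, no share differed with an exact permutation p under 0.2. Ulk1 held 36.2 ± 7.37% of the ULK family in wild type and 46.9 ± 12.6% in knockout (SD, n = 3), and Ulk2 47.4 ± 8.24% and 35.6 ± 6.16%. Wipi1 held 52.0 ± 4.69% and 36.9 ± 13.1% of the Wipi pair. Atg4b held 55.2 ± 4.36% and 60.8 ± 10.4% of the ATG4 family, a sum that holds the retrocopy row and not Atg4a itself. Bnip3 held 85.8 ± 1.38% and 85.8 ± 4.47% of its pair with Bnip3l.

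Cargo receptors that bind ubiquitin, the label placed on proteins and organelles to be removed, showed no shared direction (2 of 4 above 0). Sqstm1 encodes p62, which accumulates as protein when autophagy is blocked and is also controlled by transcription. It stood at 340.0, 560.8 and 353.8 CPM in wild type and 249.3, 550.1 and 610.3 CPM in knockout (0.17, SE 0.41). The genotypes overlapped widely, and the sign turned with length and GC offsets (-0.070). Tax1bp1 had the smallest p of the group, at 189.4, 108.9 and 192.4 CPM in wild type and 153.5, 92.3 and 73.0 CPM in knockout (-0.62, SE 0.37, adjusted p = 0.605, edgeR). With the offsets its value was 0.051. Nbr1, a receptor for ubiquitinated aggregates and peroxisomes, had -0.55 (SE 0.39), and Optn, a receptor for damaged mitochondria and bacteria, had 0.45 (SE 0.30).

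Receptors of mitophagy, the removal of mitochondria, included the 3 members with the lowest log2 fold changes of the genotype-only fit. With the batch term Rb1cc1 was lower still (-1.08). Mitochondrial receptor genes outside the members did not share the low values. Phb2 (0.86, SE 0.41), Fkbp8 (0.63, SE 0.44), Fundc2 (0.20, SE 0.35) and Bcl2l13 (0.068, SE 0.26) lay above 0, while Park2 had -0.58 (SE 0.35). Bnip3, Bnip3l (also called Nix) and Fundc1 encode outer mitochondrial membrane proteins that bind LC3 directly, and the first 2 are known targets of hypoxia-inducible factor. Bnip3 stood at 583.6, 522.1 and 630.4 CPM in wild type and 263.0, 429.3 and 275.1 CPM in knockout. Bnip3l stood at 181.7, 139.8 and 211.6 CPM in wild type and 115.6, 97.0 and 71.2 CPM in knockout. Fundc1 stood at 32.2, 32.7 and 41.4 CPM in wild type and 24.9, 20.4 and 12.4 CPM in knockout. In all 3 genes the highest knockout library lay below the lowest wild-type library, and wild-type levels were 1.79, 1.88 and 1.84 times those of the knockout.

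The log2 fold changes were -0.84 (SE 0.30), -0.91 (SE 0.30) and -0.88 (SE 0.32), with adjusted p-values of 0.526, 0.478 and 0.533 in edgeR's genotype-only fit. With the batch term they were -0.86, -0.93 and -0.91, with adjusted p-values of 0.128, 0.117 and 0.145 (edgeR). With length and GC offsets the 3 values were -0.39, -0.33 and -0.33, all of them smaller in size. None of the 3 had an unadjusted p under 0.05 in that fit (edgeR). The transcripts have GC contents of 41.6%, 41.9% and 38.8%, below the 49.9% median of all genes. Bnip3 shares 504 of its 1756 exonic bases with Gm45507, an antisense transcript. Pink1 encodes a kinase that marks damaged mitochondria for removal rather than a receptor. It stood at 301.1, 335.2 and 339.5 CPM in wild type and 215.8, 489.8 and 518.4 CPM in knockout (0.33, SE 0.37, and -0.10 with the offsets), so its knockout libraries lay on both sides of the wild type.

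The promoter of Bnip3 (chr7:138909457-138909756, minus strand) is printed as that of a gene that stood lower (RefSeq, GRCm38.p6, the same window), with the motif match in capitals.
Bnip3: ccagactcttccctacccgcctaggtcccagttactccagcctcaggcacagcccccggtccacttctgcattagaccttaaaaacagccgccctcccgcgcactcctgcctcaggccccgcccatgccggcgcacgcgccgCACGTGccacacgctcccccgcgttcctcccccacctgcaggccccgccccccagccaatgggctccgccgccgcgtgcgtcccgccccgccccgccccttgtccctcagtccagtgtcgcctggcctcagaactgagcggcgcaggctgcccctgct
Bnip3 holds CACGTG from 108 bases before its start, which contains the hypoxia element core ACGTG on both strands. The RefSeq window of Fundc1 lies within the deposited gene and is not shown as a promoter.

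Of the 42 members, 34 had a RefSeq promoter window of 300 bases at the counted locus. These include the window of Fundc1 within its gene, which held none of the motifs below. The E-box CACGTG was in the promoters of 5 of them (Atg14, Atg3, Atg5, Atg7 and Bnip3). That was 13.5% of the members' 37 promoters, beside 7.15% of all 32851 promoters. ACGTG on either strand, which every CACGTG contains, was in those of 15 genes (40.5% of the 37 promoters) and in 19.6% of all promoters. The CLEAR element, a palindrome around CACGTG bound by the autophagy and lysosome regulator TFEB, was in those of 0 genes and in 0.326% of all. The forkhead element GTAAACA was in those of 0 genes and in 3.65% of all. All motifs were searched on both strands. A match is a description of letters, and promoters of all RefSeq genes, noncoding ones included, are the background.

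Fold changes of the members followed GC content. Across the 42 genes, Spearman's rho between GC content and the genotype-only log2 fold change was 0.74, beside 0.49 across the 13786 genes with a known GC content. The points share the same 6 libraries and their GC bias, and the values are descriptions across genes. Of the 14 members of lowest GC content (38.8% to 45.3%), 1 lay above 0, Atg16l1 being that gene, and their median was -0.58. The 3173 genes in that GC range had a median of -0.43. Of the 14 members of highest GC content (52.8% to 63.1%), 12 lay above 0 with a median of 0.42, beside 0.32 for the 4725 genes in that range. With length and GC offsets the 2 medians were -0.096 and 0.13, and the rho was 0.40 over the members and 0.0069 over all genes. With exonic length the members' fold changes had a rho of 0.059, against -0.28 over all genes.

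**Figure D5:**
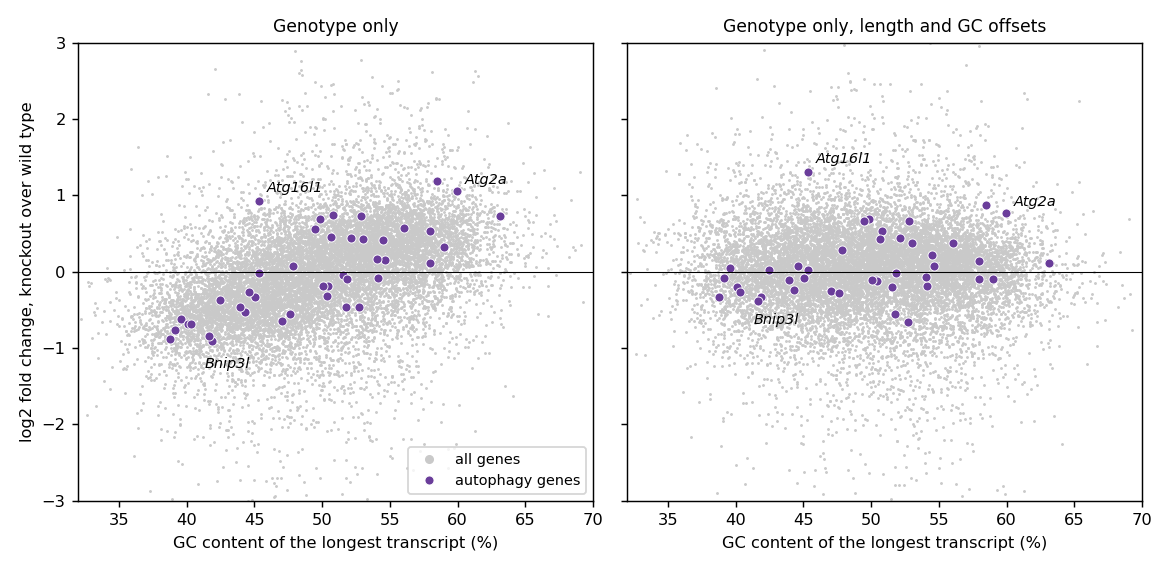
Log2 fold change (knockout over wild type) against the GC content of the longest transcript, all genes in grey and the 42 autophagy genes in purple, from the genotype-only fit (left) and with length and GC offsets (right); genes beyond the axis limits are not drawn. On the left the members climb with GC content, with Atg16l1 above the genes around it, and on the right the rho over all genes is 0.0069 while Atg16l1 remains high (1.30).

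Among 73 further genes of the pathway, 0 passed over all genes (edgeR), while 2 were higher and 3 lower at an unadjusted p under 0.05 (of 73, beside 5.26% and 3.37% of all genes). DESeq2 also called 0 of them, beside 1.9% of all genes. Their median was 0.059, with 39 above 0. Upstream kinases and nutrient sensing (23 genes) had a median of 0.0066. Akt1s1, an inhibitory subunit of the growth kinase complex mTORC1, stood at 89.8 ± 24.2 and 180.6 ± 73.4 CPM in wild type and knockout (SD, n = 3). Prkab2, a subunit of the energy sensor AMPK, stood at 27.6 ± 9.64 and 9.69 ± 8.48 CPM. Tsc2, which restrains mTORC1, stood at 84.2 ± 18.8 and 130.6 ± 26.5 CPM. Prkab2 passed in the batch-term fit with length and GC offsets (-1.44, adjusted p = 0.0397, edgeR).

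Transcription factors of autophagy genes lay above 0 for 3 of 11, with a median of -0.16. Tfeb, the activator of autophagy and lysosome genes, stood at 18.6, 27.7 and 19.7 CPM in wild type and 32.1, 29.9 and 45.3 CPM in knockout. The genotypes did not overlap (0.70, SE 0.30, adjusted p = 0.572, edgeR), and the value was 0.27 with length and GC offsets. Foxo1, a forkhead factor restrained by insulin, stood at 82.7 ± 13.1 and 58.3 ± 3.30 CPM. Nr1h4, the bile acid receptor gene, was scarce at 1.82 ± 0.112 and 0.64 ± 0.081 CPM (-1.50, SE 0.44, adjusted p = 0.417, edgeR).

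Genes of later membrane steps and fusion (23) lay above 0 for 15, with a median of 0.11. Plekhm1, an adaptor for fusion with lysosomes, stood at 66.7 ± 11.6 and 99.0 ± 10.6 CPM, and Sh3glb1, a membrane-bending partner of beclin 1, at 461.2 ± 76.8 and 289.9 ± 79.7 CPM. Nrbf2, a PI3-kinase complex subunit, stood at 17.2 ± 3.18 and 10.5 ± 5.02 CPM. None of these passed over all genes. Of 16 other cargo and organelle receptors 9 lay above 0. Ncoa4, which delivers ferritin for iron release, stood at 161.5, 62.2 and 92.2 CPM in wild type and 70.2, 29.6 and 28.5 CPM in knockout. It was lower in the knockout within replicate 1 (-1.20) and within replicates 2 and 3 (-1.37), though wild-type replicate 2 lay below knockout replicate 1. Its log2 fold change of -1.30 had an adjusted p of 0.533 with genotype only and 0.0532 with the batch term (edgeR), and the gene fell in the batch-term fit with offsets (-0.90, adjusted p = 0.0293, edgeR). The endoplasmic reticulum receptor gene Fam134b stood at 11.8 ± 8.34 and 4.56 ± 1.97 CPM, and Stbd1, a glycogen receptor gene, at 22.1 ± 3.09 and 35.01 ± 10.6 CPM.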

How the data were processed

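PolyA-selected RNA was sequenced on an Illumina HiSeq from 3 wild-type and 3 Prmt5 knockout libraries, per the labels' protocols. TopHat2, HTSeq 0.6.1 and the mm10 build appear, without role or order, per the submitters' processing notes. No source used here gives the strand setting or the annotation. The deposited table holds raw counts per gene and, per the file headers, log2 RPKM values, a log2 fold change and p-values with adjusted p-values. Counts were tested; every gene reached at least 0.606 CPM in 3 libraries, and filterByExpr removed 0.

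Counts were fitted with edgeR 4.0.16 in R 4.3.3 (TMM, glmQLFit, glmQLFTest, genotype only) over 14291 genes, with Benjamini-Hochberg adjustment and a threshold of 0.05. The biological coefficient of variation was 0.435 (0.32 with the batch term). Standard errors are the fold change over the root of F. Within-batch differences used log2(CPM + 0.5). The batch term parts replicate 1 from replicates 2 and 3. Loess offsets (span 0.5) took out, library by library, trends with length and with the GC content of the longest GENCODE M21 transcript, known for 96.5% of genes and all 42 members. Family shares used counts per exonic length and exact permutation. DESeq2 1.42.0, RLE factors, filters, the replicate block and each library left out were alternatives; the batch term with a library left out and replicates 2 and 3 alone were added after seeing the data. Fits were tested on simulated data with less spread than these libraries and no batch, length or GC bias. That check does not cover conditions like those of these data.

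Members, roles and lists were chosen with earlier results of these data known. Values in every library are given for Ulk1, Becn1, Map1lc3a, Map1lc3b, Gabarapl1, Sqstm1 and Bnip3, the member of smallest p in each role, and members with an unadjusted p under 0.05, with 3 genes of smallest p per other list. Values of Rb1cc1, Atg9a, Atg16l2 and Pink1, outside that rule, and the overlapping gene Nos3, were chosen after their values were seen. Promoters are RefSeq's (GRCm38.p6); Rubcn and Retreg1 were matched through older symbols and Calcoco2 is not analysed here.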

Additional observations from a re-analysis of the deposited data

How the results depend on the processing

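With 4 residual degrees of freedom in the genotype-only fit, many of these values are limited by the spread between libraries; raw counts were ample for all members but Atg9b and the row named Atg4a. Over the settings run, 587 values of single genes kept their direction and side of the threshold, 19 turned in sign and 10 newly passed. Counts, medians and shares were rated by other rules. A count had to stay within a set ratio of the main count and a median within the spread of library medians. A share had only to keep its sign. By these rules 235 were unchanged, 68 counts or medians moved and 7 shares turned in sign. Of the 42 members, 31 kept their sign in all 22 settings and 11 did not. The causes of the changes below were not tested.

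Counts of members at an unadjusted p under 0.05 were 9 higher and 7 lower with the batch term and 5 higher with the replicate block (8.54% of all genes higher and 9.87% lower with the block). With length and GC offsets 1 member was lower (5.26% of all genes). It belonged to the ATG8 family, and Bnip3, Bnip3l and Fundc1 no longer had an unadjusted p under 0.05. The offsets with the batch term gave 9 higher and 1 lower, and with the replicate block 6 higher and 1 lower, where 14.1% and 9.5%, and 12.3% and 8.1%, of all genes were. Replicates 2 and 3 alone gave 9 higher and 10 lower. At an adjusted p under 0.05, 1 member was called higher by DESeq2, by the offsets with the batch term and by the offsets with the replicate block, beside 1.9%, 2.71% and 0.994% of all genes called in either direction. Leaving out 1 library gave 1 to 12 members higher and 0 to 11 lower. The shares of all genes were 2.01% to 14.7% higher and 1.69% to 21.9% lower. With the batch term, leaving out 1 library gave 5 to 9 higher and 8 to 11 lower where the count moved. Over all such batch-term fits, 6.1% to 12.8% of all genes were higher and 4.93% to 17.7% lower. With the batch term and 1 library left out, the median log2 fold change of the members ran from -0.15 (without knockout replicate 2) to 0.016 (without wild-type replicate 1), with -0.14 without wild-type replicate 3.

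Other pathway genes at an unadjusted p under 0.05 numbered 1 higher with RLE size factors and 5 lower with DESeq2. The shares of all genes there were 4.94% and 4.91%. With the batch term 10 were higher and 12 lower, beside 12.1% and 12.4% of all genes. With the offsets 4 were higher, beside 8.43% of all genes. The replicate block gave 5 higher and 6 lower (8.54% and 9.87% of all genes), and with the offsets 10 and 9 (12.3% and 8.1%). The offsets with the batch term gave 14 higher and 9 lower, beside 14.1% and 9.5% of all genes. In that fit 2 were lower at an adjusted p under 0.05, beside 0.959% of all genes. Replicates 2 and 3 alone gave 10 and 14, beside 12.4% and 17.7% of all genes. Leaving out 1 library gave 0 to 11 higher and 1 to 17 lower, beside 2.01% to 14.7% and 1.69% to 21.9% of all genes. With the batch term it gave 4 to 10 higher and 5 to 14 lower (13 without wild-type replicate 1 or 2). Shares of all genes in those fits were 6.1% to 12.8% higher and 4.93% to 17.7% lower. At an adjusted p under 0.05 those fits had 0 to 1 lower, beside 0% to 0.658% of all genes.

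Among members named for their values in every library by the rule, signs turned for Sqstm1, Tax1bp1, Ulk1 and Map1lc3b. With the offsets alone, with the batch term and with the replicate block, Sqstm1 had -0.070, -0.11 and -0.098, Tax1bp1 0.051, 0.035 and 0.036, and Ulk1 -0.10, -0.10 and -0.10. With 1 library left out, Sqstm1 ran from -0.065 (without knockout replicate 3) to 0.47, Ulk1 from -0.025 (without wild-type replicate 3) to 0.24 and Map1lc3b from -0.26 to 0.27, above 0 also without wild-type replicate 2 (0.22). In the batch-term fit Sqstm1 reached -0.18 and -0.033 (without wild-type replicate 3 or knockout replicate 3), Ulk1 -0.053 (without wild-type replicate 3) and Map1lc3b 0.10 and 0.081 (without replicate 1 of either genotype). Replicates 2 and 3 alone gave 0.079 for Map1lc3b. Among the shares, the difference turned with 1 library left out for Ulk3 (-2.92 to 3.24 points), Atg4d (-1.12 to 2.60) and Bnip3 (-1.60 to 2.57).

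Deviations of same-numbered libraries correlated at 0.67, 0.59 and -0.14 for replicates 1 to 3, so the numbers were not taken to pair the libraries. Wild-type replicate 3 correlated best with knockout replicate 1 (0.18). The replicate block alone called 0 members.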
